A study of Sus scrofa with 9 samples.

Results

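AIF1, C1QA, C1QC and MRC1 are 4 genes that tissue macrophages transcribe, and their signals were followed in the developing molar of the miniature pig. Every probe set whose only gene symbol on the platform was one of these names was taken, which gave 1 probe set for each gene, or 4 of the 6765 genes that the array names in this way. The genes were selected on their course over these same arrays, so their stage differences are given as a description, without a test.

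The tissue was the additional molar germ of the Wuzhishan miniature pig, for which no treatment or altered allele is named, and its RNA was hybridised to a porcine expression array. The germs were taken with attached dental lamina from lower jaws at E50, E60 and E70, where E is the day of embryonic development, and 3 arrays were run for each stage, 9 in all. The study places the first permanent molar (M1) at cap stage at E50 with the second (M2) not begun. It places M1 at bell stage at E60 with M2 initiated, and at late bell stage at E70 with little change in M2. By the study's methods, germs of a stage were collected within a litter and the RNA came from pools, but no source used here says whether the 3 arrays of a stage held separate litters or pools, so the spread between arrays may be technical.

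Macrophages are resident phagocytes that settle in fetal tissues early and clear dying cells, matrix debris and soluble ligands. AIF1 (also called IBA1) encodes a calcium-binding protein that bundles actin at the membrane ruffles of macrophages and microglia. C1QA and C1QC encode chains of C1q, the recognition molecule of the classical complement pathway, which tissue macrophages secrete and which also tags apoptotic cells for uptake. MRC1, the mannose receptor CD206, is an endocytic receptor of resident macrophages and of some endothelial cells. In the RefSeq annotation of the pig assembly Sscrofa11.1, C1QA, C1QC and C1QB follow each other as protein-coding genes between EPHA8 and EPHB2. No probe set carried the symbol C1QB alone, so the remaining chain of C1q was not followed. Probe sets with several symbols or none were not searched for it. MRC1 lies between TMEM236 and SLC39A12, and the AIF1 gene model overlaps those of LST1 and NCR3, its neighbours.

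The E50 arrays stood apart from the other 6, which touches every comparison with E50. Background was taken for each array as the 95th percentile of its 23 unhybridised control probe sets, and it spanned 77.7 to 379 signal units on the E50 arrays, 37.9 to 54.4 on those of E60 and 38.1 to 55.8 on those of E70. For the EF1A control, the 3′ signal divided by the 5′ signal, a sign of RNA length, spanned 49.3 to 55.8 on the E50 arrays, 1.42 to 1.56 on those of E60 and 1.35 to 1.47 on those of E70. The spike-in controls averaged 58370 to 66123, 4150 to 4268 and 3086 to 3938 at the 3 stages, and the mean correlation of an array with the others of its stage was 0.607 to 0.647, 0.901 to 0.907 and 0.904 to 0.914. Stage and array quality cannot be told apart for E50. The E60 and E70 arrays lay closer together, but their spike-in averages did not overlap, nor did the 3′ to 5′ ratios of the GAPDH control (4.36 to 6.47 at E70, against 6.98 to 9.24 at E60) and of the actin control (22.9 to 26.3 at E70, against 30.1 to 34.9 at E60). These quality measures therefore also moved with the step from E60 to E70, and their part in the differences of that step was not tested. As to the tissue label, 11 to 14 of 14 measured dental mesenchyme markers and 2 to 7 of 9 dental epithelium markers lay above background on each array.

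AIF1 was lower at each later stage. Its signals were 3215, 3251 and 1716 at E50, 492, 611 and 486 at E60, and 452, 250 and 306 at E70. No array of a later stage reached the lowest array of the stage before it, although the highest E70 array and the lowest E60 array were close. The fitted log2 change was -2.31 (SE 0.35) for E60 minus E50 and -0.69 (SE 0.35) for E70 minus E60, which are signals 4.97 and 1.62 times lower. The mean signal was 336 ± 104 at E70, against 529 ± 70.4 at E60 (SD, n = 3 each), so that most of the decline of AIF1 lay in the earlier step, the one that rests on the E50 arrays. Over both steps its signal was 8.03 times lower at E70 than at E50.

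C1QC also declined at both steps. It measured 856, 756 and 1043 at E50, 307, 277 and 359 at E60, and 92.5, 99.1 and 91.0 at E70. The 3 stages did not overlap, and the 3 arrays of E70 were within a narrow band. Log2 changes were -1.49 (SE 0.23) for E60 minus E50 and -1.73 (SE 0.23) for E70 minus E60, or 2.81 and 3.32 times lower. At E70 it averaged 94.2 ± 4.32, against 314 ± 41.7 at E60 (SD, n = 3 each), and its E70 signal was 9.32 times lower than that at E50.

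MRC1 showed the smaller step first. Its signals were 767, 583 and 776 at E50, 414, 407 and 363 at E60, and 101, 109 and 116 at E70. The stages were again separate, with the gap between E60 and E70 far wider than the spread of either. The log2 change was -0.83 (SE 0.22) for E60 minus E50, 1.78 times lower, and -1.86 (SE 0.22) for E70 minus E60, 3.64 times lower. It averaged 109 ± 7.65 at E70, against 395 ± 27.7 at E60 (SD, n = 3 each). Centring each array on its median in place of the deposited scaling turned the value for E60 minus E50 into -0.06 for MRC1, -0.71 for C1QC and -1.54 for AIF1, with the median of all genes at 0.59. For E70 minus E50 the same centring gave -1.99 for MRC1, against -2.70 as deposited, -2.51 for C1QC, against -3.22, and -2.30 for AIF1, against -3.01.

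C1QA had another course, and its E50 values carried no level. Its signals were 14.3, 14.7 and 15.8 at E50, 117, 122 and 143 at E60, and 92.6, 85.4 and 85.0 at E70. All 3 E50 arrays lay below their own background, by a wide margin, while all arrays of E60 and E70 lay above theirs. The fitted log2 value for E60 minus E50 was 3.09 (SE 0.20), but the background of the E50 arrays, averaged on the log scale, exceeded the mean signal of C1QA at E60, so no fold change against E50 could be given. C1QC, the neighbouring gene whose chain joins that of C1QA in C1q, was above background on the same 3 E50 arrays. From E60 on both genes declined, with C1QA at -0.54 (SE 0.20) on the log2 scale for E70 minus E60, 1.45 times lower, and 87.7 ± 4.31 at E70, against 128 ± 13.9 at E60 (SD, n = 3 each).

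**Figure D1:**
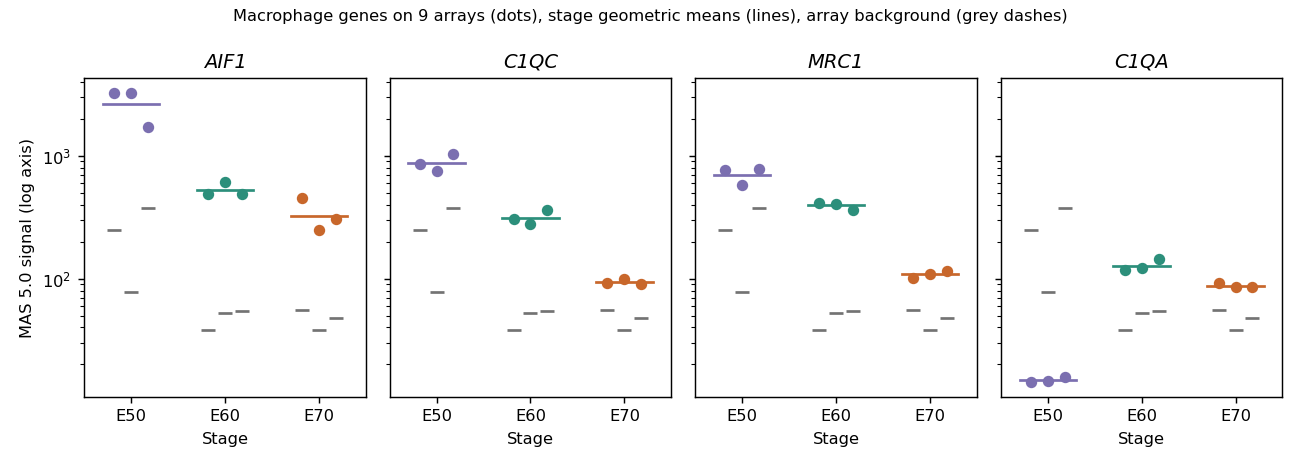
Signal of AIF1, C1QC, MRC1 and C1QA (log axis, MAS 5.0 units) at E50, E60 and E70, with a dot per array, a line at the geometric mean of the 3 arrays of a stage and a grey dash at each array's background. AIF1, C1QC and MRC1 step down at E60 and again at E70 without overlap, while the C1QA dots at E50, 14.3 to 15.8, lie under the background dashes.

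All 4 genes were thus lower at E70 than at E60 with no overlap of arrays, a pattern seen for 15.7% of all genes in that direction. For E60 against E50 and for E70 against E50, AIF1, C1QC and MRC1 (3 of 4) were lower without overlap, as were 27.5% and 25.5% of all genes. The C1QA arrays of E60 and E70 lay above those of E50, which were below background. Stepping down without overlap at E60 and once more at E70 was the course of AIF1, C1QC and MRC1 and of 4.42% of all genes. Because the 4 genes were chosen for their course, these counts describe them and nothing is read from the difference to all genes.

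Among all genes, the change of MRC1 for E70 minus E60 stood at the 1.76 percentile, that of C1QC at 2.14, that of AIF1 at 9.37 and that of C1QA at 13.1, counted from the steepest decline. The median change of the 4 genes was -1.21, against 0.05 over all genes. The steps were therefore shared out differently, with the larger part of the AIF1 decline in the earlier step and that of MRC1 in the later one. The sizes of the 2 steps of C1QC were close as deposited and far apart with median centring, at -0.71 and -1.80.

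**Figure D2:**
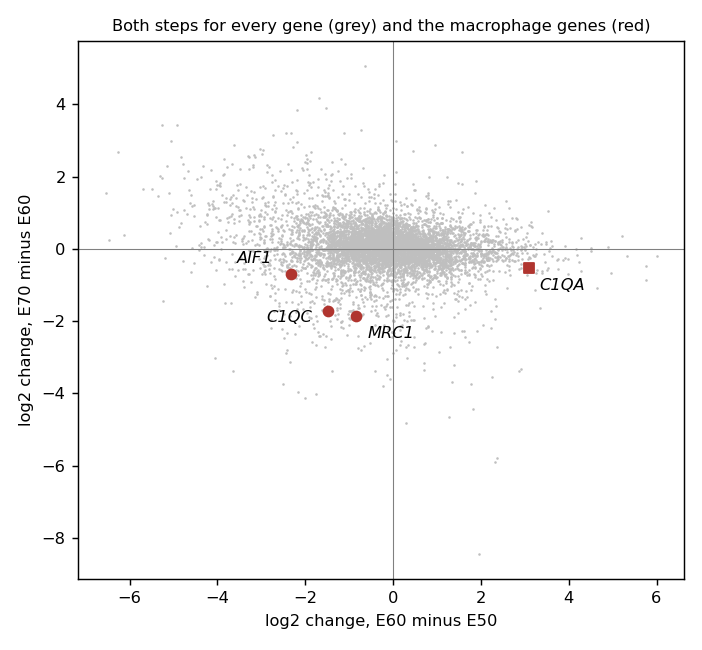
Log2 change for E60 minus E50 (horizontal axis) and for E70 minus E60 (vertical axis) of every named gene (grey) and of AIF1, C1QC and MRC1 (red circles) and C1QA (red square, below background at E50). AIF1, C1QC and MRC1 lie where both steps are negative, and C1QA lies far to the right at 3.09 and just under the horizontal zero line.

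Within a stage the 4 genes did not order the arrays alike. The first 2 E50 arrays were the highest for AIF1 and the third was its lowest, while the third was the highest for C1QC and MRC1. Correlations of the deviations from the stage means, over 9 arrays in 3 stages, ran over the 6 pairs of genes between -0.74 for AIF1 with C1QC and 0.64 for C1QA with C1QC. The spread of single arrays was therefore not common to the 4 genes.

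Other macrophage markers were read from a list of 26 defining genes that leaves out the 4, of which 14 were measured by a probe set with that symbol alone. CD68, CSF1R and MSR1 were among those not measured. For E70 against E60, 8 of the 11 that had a level, meaning all 3 arrays of the brighter stage above background, were lower without overlap, and 1, FOLR2, was higher. CD86 was lower without overlap as well but at background on all arrays of both stages, which makes 9 of all 14, against 15.7% of all genes. The median change of the 14 was -1.39. LYVE1, the hyaluronan receptor of some resident macrophages and of lymphatic endothelium, was the 1 gene that passed the test, which was limma with Benjamini-Hochberg adjustment over all probe sets (adjusted p = 0.0459). Of all genes 0.606% passed as lower. The LYVE1 signals were 78.2, 77.0 and 91.0 at E70, against 262, 222 and 325 at E60, and its log2 change was -1.70 (SE 0.25). Leaving out any 1 array of E60 or E70 ended the call (limma adjusted p up to 0.211), and a second, dimmer LYVE1 probe set gave -0.86 and no call.

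VSIG4, a complement receptor of resident macrophages, measured 106, 159 and 75 at E70, against 449, 389 and 312 at E60, with a log2 change of -1.81 and an adjusted p of 0.121 by limma. CTSS, the cathepsin that trims the invariant chain of MHC class II, measured 512, 730 and 611 at E70, against 1652, 1601 and 1538 at E60 (log2 change -1.39, limma adjusted p = 0.189). CD163, the haemoglobin scavenger receptor, measured 125, 138 and 103 at E70, against 254, 355 and 354 at E60 (log2 change -1.39, limma adjusted p = 0.573). In each of these genes the stages were apart, while the test over all probe sets was not passed.

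TYROBP and FCER1G, signalling adaptors of myeloid receptors, had log2 values of -1.45 and -2.16 for E70 minus E60, and FCGR3A, an Fc receptor, had -2.32, each with 1 of 3 E70 arrays at background. The lysosomal membrane gene LAPTM5 had -1.37. FOLR2, a folate receptor of resident macrophages, stood at 1701, 1337 and 1430 at E70, against 1271, 1264 and 1246 at E60, and the protease LGMN had a change of 0.05. Thus 2 markers that were bright at both stages did not share the lower E70 values. CD14 and CD86 were at background on all E60 and E70 arrays, and FCGR1A was at background on all 9, so these gave no level. SPI1, the lineage factor PU.1, was above background on all 3 E60 arrays and on 1 of 3 E70 arrays.

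Fitting the E60 and E70 arrays alone, which leaves the E50 arrays out of the estimate of spread, gave 3 of the 14 defining markers as lower. The share of all genes lower in that fit was 1.18%. The 3 were CTSS (adjusted p = 0.0375), LAPTM5 (adjusted p = 0.0298) and LYVE1 (adjusted p = 0.0296), all by limma. This fit was made because of the E50 arrays, and the changes themselves are the same in it. For E60 against E50, 3 of the 14 passed as lower, against 13.7% of all genes, and 0 as higher, against 7.20%. The 3 were CD14, FOLR2 and LYVE1, of which CD14 had no level here. At an unadjusted p under 0.05 the counts were 7 and 0. The share of all genes at that threshold was not counted, so no unadjusted count given here is read as an excess. Lower without overlap were 9, 8 of them with a level, against 27.5% of all genes, and the median was -0.97. FCGR3A was higher without overlap at E60 (log2 value 1.40, no call), with 2 of 3 E50 arrays above background. The FOLR2 call ended when any 1 array of E60 was left out. For E70 against E50, 8 passed as lower, 6 of them with a level, against 14.3% of all genes. Higher were 0, against 7.33% (10 lower and 0 higher unadjusted). Lower without overlap were 10, 8 of them with a level, against 25.5% of all genes, and the median was -1.99. The fit assumes 1 spread for all stages, which the noisier E50 arrays did not have, so calls against E50 are less firm than their adjusted p states. In simulated data with 200 probe sets changed 4-fold for E60 against E50, 74.5% of these were recovered beside 212 false calls. Like AIF1, C1QC and MRC1, the genes CTSS, FCER1G, LYVE1, TYROBP and VSIG4 (5 of 14) stepped down at E60 and again at E70 without overlap. So did 24 of the 163 genes of all the macrophage and phagocyte lists and 4.42% of all genes. Dimmer probe sets went against this for LYVE1, at 1.65 for E60 minus E50 and 0.79 for E70 minus E50, and for VSIG4, at 0.085 for E70 minus E50, none of which passed the test.

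**Figure D3:**
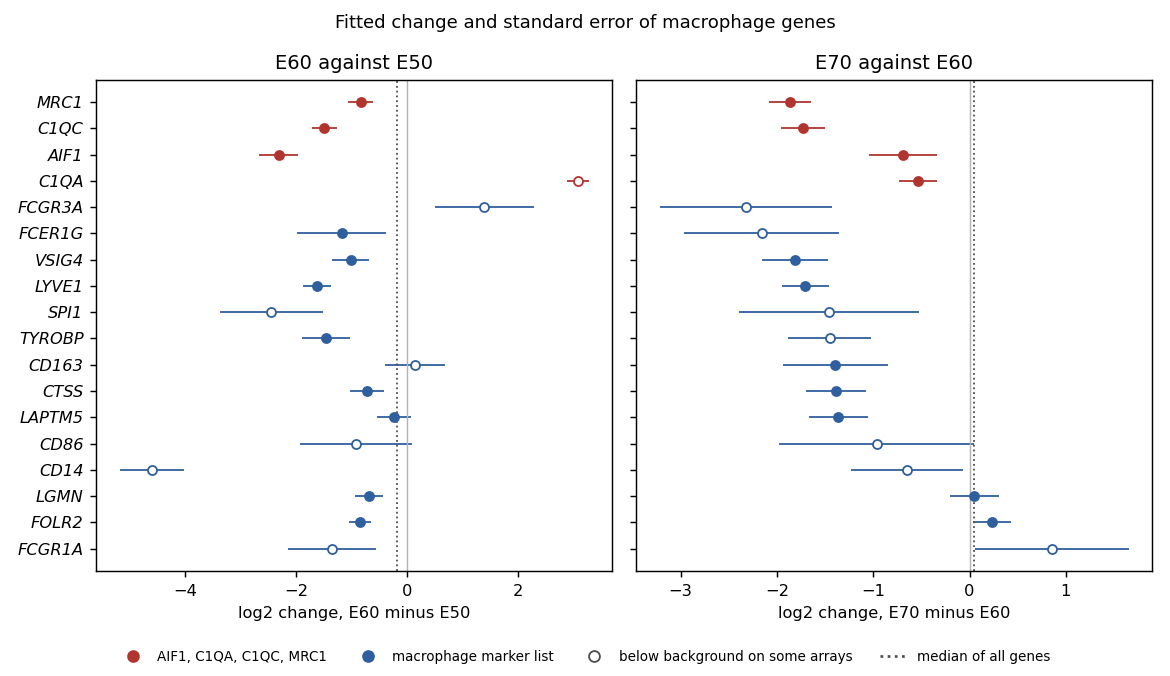
Fitted log2 change with its standard error for the 4 genes (red) and the 14 measured macrophage markers (blue), E60 minus E50 on the left and E70 minus E60 on the right, with open symbols where an array of either stage lay below background and a dotted line at the median of all genes. On the right all 4 red points and 11 of 14 blue points are negative, with LGMN, FOLR2 and FCGR1A as the others.

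The 8 lists of macrophage and phagocyte genes together held 163 measured genes besides the 4. For E70 against E60, 3 of these (1.84%) passed as lower, SPP1, CXCL12 and LYVE1, against 0.606% of all genes, and 0 as higher by limma, against 0.118% (30 and 3 at an unadjusted p under 0.05), with a median of -0.26. In the fit of those 2 stages alone 10 passed as lower, against 1.18% of all genes, and the 3 were among the 10. In the same fit 1 passed as higher, as did 49 of all genes. The added genes were CCL2, CD53, CTSS, IL18, IRF8, LAPTM5 and LY96. For E60 against E50, 28 (17.2%) passed as lower, 22 of them with a level, against 13.7% of all genes, and 4 (2.45%) as higher, against 7.20%. For E70 against E50, 46 (28.2%) passed as lower, 37 of them with a level, against 14.3%, and 2 (1.23%) as higher, against 7.33%. With median centring these counts were 7 and 18, and 30 and 18. All genes lower under that centring were 3.92% and 5.65%, and 1441 and 1482 of the 6765 were higher.

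The list of leukocyte adaptors and cytoskeleton genes had 11 of 19 lower at E70 than at E60 without overlap, against 15.7% of all genes. Limma called 0 (10 lower at an unadjusted p under 0.05, for which no share of all genes was counted), and the median was -1.08. The list shares FCER1G, FCGR3A, LAPTM5 and TYROBP with the marker list, and without these 4, 7 of 15 were lower without overlap. CD53, a tetraspanin of leukocytes, measured 71.6, 99.1 and 104 at E70, against 331, 425 and 283 at E60, with a log2 change of -1.92 (limma adjusted p = 0.0641). PLEK, the pleckstrin substrate of protein kinase C, was at background on all 3 E70 arrays and above it on all 3 of E60. For E70 against E50, 9 of the 19 passed as lower, 8 of them with a level, against 14.3% of all genes. Among the 9 was PLEK, at least 8.15-fold lower at E70 when its E70 arrays are set to their background (limma adjusted p = 0.00661). ITGB2, the shared beta chain of the leukocyte integrins, also passed (limma adjusted p = 0.00429), with 1 of 3 E70 arrays above background.

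Complement genes besides C1QA and C1QC gave 4 of 26 lower at E70 than at E60 without overlap, near the 15.7% of all genes. Another 5 of 26 were higher without overlap, as were 1244 of all 6765 genes, and 0 were called by limma (5 lower unadjusted). The 4 lower ones were C1S, C3, C4A and CFD. C1S, a protease of the complex that holds C1q, measured 822, 1124 and 1298 at E70, against 1948, 1531 and 1618 at E60, a log2 change of -0.67 (limma adjusted p = 0.545). C1S had passed as lower for E60 against E50 (-1.18, limma adjusted p = 0.0188), but not when any 1 array of E60 was left out (limma adjusted p up to 0.0759). C1R, its partner protease, measured 2352, 2160 and 1586 at E70, against 1832, 2486 and 2228 at E60, and these overlapped.

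Lysosome and phagosome genes gave 7 of 26 lower without overlap at E70 against E60, with 6 higher without overlap, and antigen presentation genes gave 5 of 22 lower and 4 higher, with 0 called by limma in either list (3 lower and 1 higher unadjusted in the first, 0 in the second). Scavenger and pattern receptors gave 6 of 19 lower and 1 higher without overlap, with 0 called by limma (2 lower unadjusted). Among the 6 was LY96, the partner of the endotoxin receptor, at 182, 269 and 296 at E70, against 809, 815 and 752 at E60. Growth and lineage factors gave 5 of 14 lower and 1 higher, with 0 called by limma (3 lower and 1 higher unadjusted). Of the chemokine and cytokine list 8 of 34 were lower without overlap, 4 were higher and 2 were called, both as lower. Of all genes 15.7% were lower without overlap in this step, and 1244 of 6765 were higher without overlap. SPP1 (osteopontin), made by macrophages and by mineralised-tissue cells, measured 9054, 9406 and 8461 at E70, against 51313, 46034 and 48424 at E60, a log2 change of -2.44 (SE 0.20, limma adjusted p = 0.00468). CXCL12, a stromal chemokine, measured 1162, 935 and 1121 at E70, against 4312, 3783 and 3442 at E60 (log2 change -1.84, SE 0.22, limma adjusted p = 0.0199), a call that ended when any 1 array of E60 or E70 was left out (limma adjusted p up to 0.13).

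**Figure D4:**
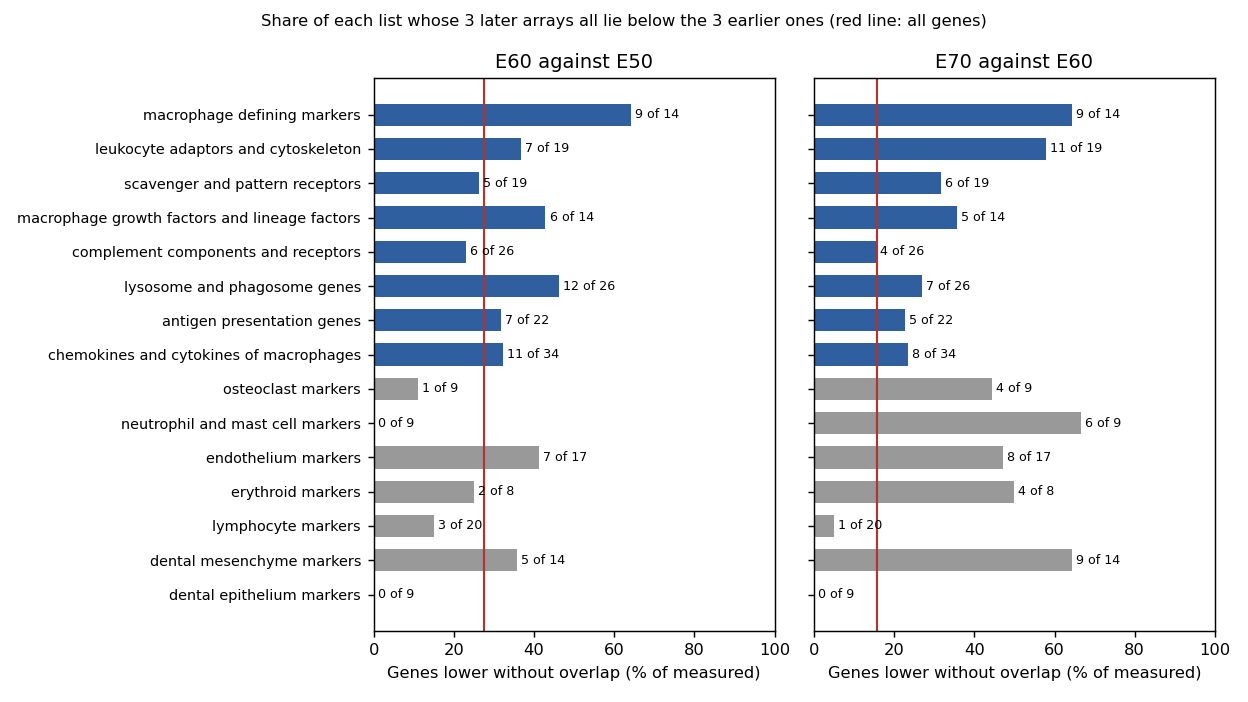
Share of the measured genes of each list (percent, bars) whose 3 later arrays all lay below the 3 earlier ones, for E60 against E50 and E70 against E60, with macrophage and phagocyte lists in blue, other cell types in grey and the share of all genes as a red line. For E70 against E60 the marker list (9 of 14) and the leukocyte list (11 of 19) reach furthest among the blue bars, and the grey bars of neutrophil and mast cell (6 of 9) and dental mesenchyme markers (9 of 14) reach as far or further.

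Markers of other cells moved in the same step. Dental mesenchyme markers summed to 117303 to 164281 signal units at E70, against 213976 to 218313 at E60. Without overlap, 9 of 14 were lower, against 15.7% of all genes, and 1, BMP4, was higher. BMP4 passed the test as higher (log2 change 1.79, limma adjusted p = 0.0447), and 2 of the 14, ASPN and POSTN, passed as lower. Endothelial markers summed to 3608 to 3924 at E70, against 7285 to 7703 at E60, with 8 of 17 lower. Among the 8 was LYVE1, which is also in the macrophage marker list. Neutrophil and mast cell markers, another myeloid list, summed to 406 to 551 at E70, against 1814 to 2002 at E60. Of these, 6 of 9 were lower, 5 of them with a level (S100A8 had none), and 1 was called by limma. Erythroid markers had 4 of 8 lower and lymphocyte markers 1 of 20. Osteoclast markers, of a cell that shares its precursor with macrophages, summed to 3485 to 5690 at E70, against 14817 to 16824 at E60. Dental epithelium markers summed to 7938 to 8924 at E70, against 4050 to 4146 at E60, with 0 of 9 lower without overlap. The 4 macrophage genes summed to 544 to 737 at E70, against 1330 to 1417 at E60. These sums are dominated by the brightest probe sets of each list, and the part of these other cells in the lower macrophage signals was not tested. In whole germs, fewer macrophages and less of these RNAs in each macrophage cannot be told apart.

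ACP5 and ATP6V0D2, osteoclast genes, passed the test for E70 against E60. ACP5, the tartrate-resistant acid phosphatase of osteoclasts and some macrophages, measured 245, 238 and 269 at E70, against 2947, 3002 and 3266 at E60 (log2 change -3.62, limma adjusted p = 0.00132). ATP6V0D2, a proton pump subunit, measured 28, 9.34 and 14.9 at E70, against 430, 435 and 468 at E60 (limma adjusted p = 0.0052), at least 9.49-fold lower at E70 with its arrays, all at background, set to their background. At E60 against E50, ACP5 differed by -0.07 and ATP6V0D2 by 0.30, neither of which passed the test. In that step AIF1 had -2.31, C1QC -1.49 and MRC1 -0.83, or -0.06 for MRC1 with median centring. These values rest on the E50 arrays, where stage and array quality cannot be told apart.

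The genes most like the 4 were sought by Pearson's r over 9 arrays with the mean of their standardised profiles, among 5610 genes above background on all arrays of at least 1 stage. Since the 9 arrays fall into 3 stages, r mainly records 2 steps, and the earlier step of the mean profile is shaped by the C1QA values below background at E50. With all 4 genes in the mean, the 10 highest were C1QTNF6 (r = 0.993), MGP (0.990), FABP4 (0.990), CXCL12 (0.988), SESN1 (0.984), STC1 (0.983), PDGFRL (0.982), FABP5 (0.980), FNDC1 (0.977) and TMEM100 (0.977). With C1QA left out, a choice made after seeing the data, FABP4 was the 1 gene that remained among the 10 highest, and the others ranked as low as 202. That second ranking was led by MYLPF (r = 0.998), SCRG1 (0.997) and OAZ1 (0.997), which are in none of the macrophage and phagocyte lists. LYVE1 at rank 4 (r = 0.991) and IL18 at rank 8 (r = 0.983) are genes of those lists. The rest of its 10, ACTA2, TMEM59, BGN, TVP23B and FABP4, are not. The choice of gene most like the 4 thus depends on C1QA. FABP4, a fatty acid carrier of fat cells, endothelium and macrophages, measured 4354, 3758 and 3605 at E50, 823, 848 and 950.5 at E60, and 50.3, 49.6 and 69.3 at E70, where 2 of 3 arrays were above background.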

How the data were processed

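The deposited table held 1 intensity per probe set and array, which the authors computed with MAS 5.0 in GeneSpring; the labels name MAS5 without a version. Each array had been scaled to 1 target (2% trimmed mean about 500.1), and detection calls were not analysed here. A floor of 1 was applied before log2. Controls (124) were left out, and 23999 of 24123 probe sets were fitted over all 9 arrays with limma 3.58.1 in R 4.3.3 (lmFit and eBayes, constant prior), with Benjamini-Hochberg adjustment over all of them and adjusted p under 0.05 as a call. Genes came from the platform annotation, with 10069 probe sets carrying 1 symbol, 198 several and 13732 none, and the brightest probe set stood for a gene. The fit was tested on simulated data with each stage's own spread; large changes were mostly recovered, changes as small as those of AIF1 and C1QA for E70 against E60 were not, false calls exceeded the threshold somewhat for E70 against E60 and outnumbered the true calls for E60 against E50, and E70 against E50 was not simulated. Arrays have no read depth, so their number and background limit precision.

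The members and lists were chosen with earlier results of these data known. Besides the 4 genes, the text names the measured genes of the macrophage marker list and the 10 genes of most similar profile, with C1QA and without it. From the other lists, a rule gave up to 2 called rises and falls per list and comparison, and not all of these are named. Among those left out for E60 minus E50 were the rises of LCP1 (log2 change 2.35), TGFBR1 (1.83) and NFATC1 (1.95). Also left out there were the falls of B2M (-2.66) and ENG (-3.20). The genes C1R, CD53, PLEK and LY96 at E70 against E60, C3, C4A, CFD, CCL2, IL18 and IRF8 were named after their values were seen. Alternatives were other scalings, floors, filters, priors, array weights, probe sets, a replicate block, 2 stages alone and leaving out each array. Array numbers were not treated as pairs.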

Additional observations from a re-analysis of the deposited data

How the results depend on the processing

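For E70 against E60, AIF1, C1QA, C1QC and MRC1 kept their negative sign under each setting run. Median centring moved the median of all genes to 0.59 for E60 against E50, against -0.18 as reported. With it the median of the 4 genes moved to -0.39 there and -2.14 for E70 against E50. Both medians include C1QA, whose E50 values were below background, and AIF1, C1QC and MRC1 are given singly above. The MRC1 change for E60 against E50 moved to -0.06. The marker list's median moved to -0.19 and -1.28 in those comparisons, with 4 markers lower without overlap and 1 called for E60 against E50. Median centring called 265 genes lower and 1441 higher over all genes for E60 against E50, against 930 and 487. C1QA for E60 against E50 ranged between 1.99 with a floor at 32 and 3.86 with median centring.

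Counts here are of all list genes called under a setting, not of main calls that were kept. Where 28 list genes were lower for E60 against E50, array weights gave 9, median centring 7 and the 2 stages alone 17. All genes lower were then 4.69%, 3.92% and 6.65%, against 13.7%. Where 4 were higher, array weights gave 2, a floor at 32 gave 7 and a mean-dependent robust prior 7. Median centring gave 18, the next brightest probe set 0 and the 2 stages alone 2. All genes higher were 253 with array weights, 678 with the floor and 787 with the robust prior, against 487. They were 1441 with median centring and 219 with the 2 stages alone. Where 46 were lower for E70 against E50, array weights gave 26, median centring 30 and the 2 stages alone 26. All genes lower were then 5.75%, 5.65% and 5.99%, against 14.3%. Where 2 were higher, leaving out dim probe sets gave 9, a floor 10, adding 16 to the signal 6 and the robust prior 11. Median centring gave 18, quantile normalization 4, and the next probe set and the 2 stages alone 0 each. All genes higher were 707 without dim probe sets, 729 with a floor, 570 with 16 added and 844 with the robust prior, against 496. They were 1482 with median centring, 477 with quantile normalization and 163 with the 2 stages alone. Where 3 were lower for E70 against E60, array weights gave 21, leaving out dim probe sets 6 and a floor 7. The robust prior gave 10, the next probe set 1 and the 2 stages alone 10. All genes lower were 2.94% with array weights, 1.02% without dim probe sets and 1.11% with a floor, against 0.606%. They were 1.83% with the robust prior and 1.18% with the 2 stages alone. The 0 higher became 1 with array weights, a floor, the robust prior or the 2 stages alone. All genes higher were then 135, 32, 53 and 49, against 8.

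Markers called lower for E60 against E50 (3) were 5 with a floor or with 16 added, where all genes lower were 17.4% and 15.1%. For E70 against E50 (8) they were 5 with array weights or the 2 stages alone. For E70 against E60 (1) they were 6 with array weights, 4 with the robust prior and 3 with the 2 stages alone. They were 0 with median centring (0.399% of all genes), quantile normalization (0.429%) or the next probe set, which also moved the median to -1.01. For the other settings the shares of all genes are those given above.

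Leaving out 1 array gave 9 to 39 list genes lower and 0 to 8 higher for E60 against E50, and 30 to 53 and 0 to 8 for E70 against E50. It gave 1 to 2 lower for E70 against E60, where the markers called were 0 in every case. The shares of all genes called were not counted in these fits.

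With a replicate block, 15 list genes were lower for E60 against E50, with 8.13% of all genes lower. For E70 against E50, 1 list gene was higher, with 291 of all genes higher. For E70 against E60, 0 list genes and 0 markers were lower, with 0.0739% of all genes lower. Arrays of the same number did not deviate together, so the numbers were not taken as pairs.

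The next brightest probe set turned the sign for E60 against E50 of AMCF-II (-4.89), CFP (-2.84) and LYVE1 (1.65), and for E70 against E50 of CD46 (-0.78), LYVE1 (0.79), TGFB1 (0.32) and VSIG4 (0.085). The cause was not tested in any of these. The profile without C1QA, added after seeing the data, kept 1 of the 10 most similar genes.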
